A study of Mus musculus with 18 samples.

Results

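Reactive astrocyte genes are transcripts that astrocytes, the support and signalling glia of the brain, make after injury, infection or inflammation. The genes described here are a panel of 34 taken by symbol from a given list of such genes: 11 pan-reactive genes, 11 A1 genes and 12 A2 genes. All 34 symbols were found among the 26301 genes of the count table. Of these genes 16539 passed the filter on low counts and were tested, and 33 of the 34 members were among them (pan-reactive 11 of 11, A1 11 of 11, A2 11 of 12).

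As background, the pan-reactive genes rise in astrocytes after many kinds of insult. The A1 genes were first grouped because they rise after bacterial lipopolysaccharide, and microglia, the immune cells of the brain, can bring them about through interleukin 1 alpha, tumour necrosis factor and complement C1q. The A2 genes were grouped because they rise after a blocked brain artery. Interferon, NF-kB and STAT3 signalling are known routes to many members of the 3 sets. The sets overlap in real tissue, so their names are used here as labels of lists and not of cell states.

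RNA was sequenced from cultured mouse astrocytes that had been dissected from newborn (P0) cortex, grown for about 2 weeks in DMEM with fetal bovine serum and moved to N2 medium once confluent. They were kept alone (Aonly in the labels) or received hippocampal neurons (AplusN) of newborn mice that carry the red fluorescent protein TdTomato. After 2, 4 or 7 days all cultures were detached with TrypLE and sorted for TdTomato fluorescence, with astrocytes alone setting the negative gate. This gave 6 groups of 3 libraries (alone or co-culture at each day), and the title names transcripts that depend on contact with neurons as the question. The labels give no strain and no promoter for TdTomato. All groups share the serum culture, the N2 medium, the detachment and the sort, so there is no library of astrocytes that had not been cultured or sorted. Each replicate number carries its own date in the labels, common to its 6 libraries, so a co-culture library and the library of astrocytes alone with the same number and day are called a pair, and there are 9 pairs. Whether the numbers also stand for separate animals is not in the labels, and p-values cover only the spread among the cultures sequenced, which may be technical.

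Total counts ran from 13950111 to 32623556 reads in 16 libraries. The other two were replicate 1 of astrocytes alone at day 2, with 3242459 reads of which 92.5% fell on a single gene, and replicate 1 of the day 7 co-culture, with 8966485 reads of which 40.5% were mt-Rnr2. Levels below are CPM, the reads of a gene scaled to a common library size after TMM correction, and differences are given on the log2 scale, each with a standard error (SE). On that scale 3 reads correspond to 20.2 CPM in the first of these libraries, 0.504 CPM in the second and 0.0743 to 0.179 CPM in the others, for counting error only. The first holds only 401 reads of all members together, with 8 members at 0 and 8 members at 10 reads or more, so results were also computed without both libraries (16 libraries), with the replicate number as a block. Replicate 3 of the day 4 co-culture was kept among the 16. It had a read for 85.4% of the tested genes, against 83.1% in the day 7 co-culture of replicate 1, and 4 members at 0. Astrocyte markers were abundant, with a summed level of 713 to 6346 CPM over 15 genes in the 18 libraries. Microglia and macrophage markers summed to 5.32 to 485 CPM over 17 genes, and 11 endothelial and mural markers to 42.0 to 1222 CPM, with 5 to 9 of the 11 holding a read in a library and Cldn5 and Kcnj8 at 0 in all. Fibroblast markers summed to 60.2 to 352 CPM, 10 oligodendrocyte lineage markers to 53.8 to 451 CPM and 6 ependymal markers to 105 to 394 CPM. The astrocyte sum did not stand far above the rest in every library. In the day 2 libraries of replicate 1 it was 713 CPM alone and 1523 CPM in co-culture, beside 491 and 1222 CPM for endothelial and mural markers.

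Reads of the members were spread very unevenly. Cp, which encodes the copper-carrying ferroxidase ceruloplasmin, held 1284004 reads over the 18 libraries, the most of any pan-reactive gene, and the asparaginase gene Aspg held 127, the fewest. In the A1 set the highest total belonged to H2-D1, a class I antigen-presenting molecule, with 264975 reads, and the lowest to Srgn, the protein core of the proteoglycan serglycin, with 268. In the A2 set Ptx3, a secreted pentraxin of innate immunity, held 62616 reads and Slc10a6, a transporter of steroid sulfates, held 48. Of the 48 reads of Slc10a6, 47 came from replicate 3 of the day 4 co-culture and 1 from replicate 3 of astrocytes alone at day 2. Counts grow with transcript length, so these totals say how well each gene was measured and not which is made most.

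Co-culture with neurons left no member past the test. With edgeR's quasi-likelihood test and Benjamini-Hochberg adjustment over all tested genes, 0 of 33 members passed adjusted p under 0.05 at day 2, day 4, day 7 or on average over the days, and 0% of all tested genes passed. DESeq2, limma-voom and the fit of 16 libraries with the replicate block called 0 members in these comparisons too, while that last fit called 0.0936% of all tested genes at day 2 and 0.105% at day 7. Before adjustment, 0 members at day 2, 0 at day 4, 4 at day 7 and 1 on average had edgeR p under 0.05, against 2.35%, 0.369%, 9.37% and 4.17% of all tested genes. The same counts were 0, 0, 8 and 2 with DESeq2, against 3.23%, 0.502%, 11.9% and 4.81% of all tested genes, and 1, 0, 5 and 3 with limma-voom, against 3.46%, 1.84%, 2.41% and 5.48%. In direction, more members were fitted higher than lower in co-culture: 26 of 33 at day 2 (all tested genes 53.3%), 21 at day 4 (48.6%), 26 at day 7 (50.2%) and 27 on average (52.6%). With 16 libraries and the replicate block these counts were 16, 18, 24 and 25 of 33, so that of day 2 moved by over 1.5 times.

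**Figure D1:**
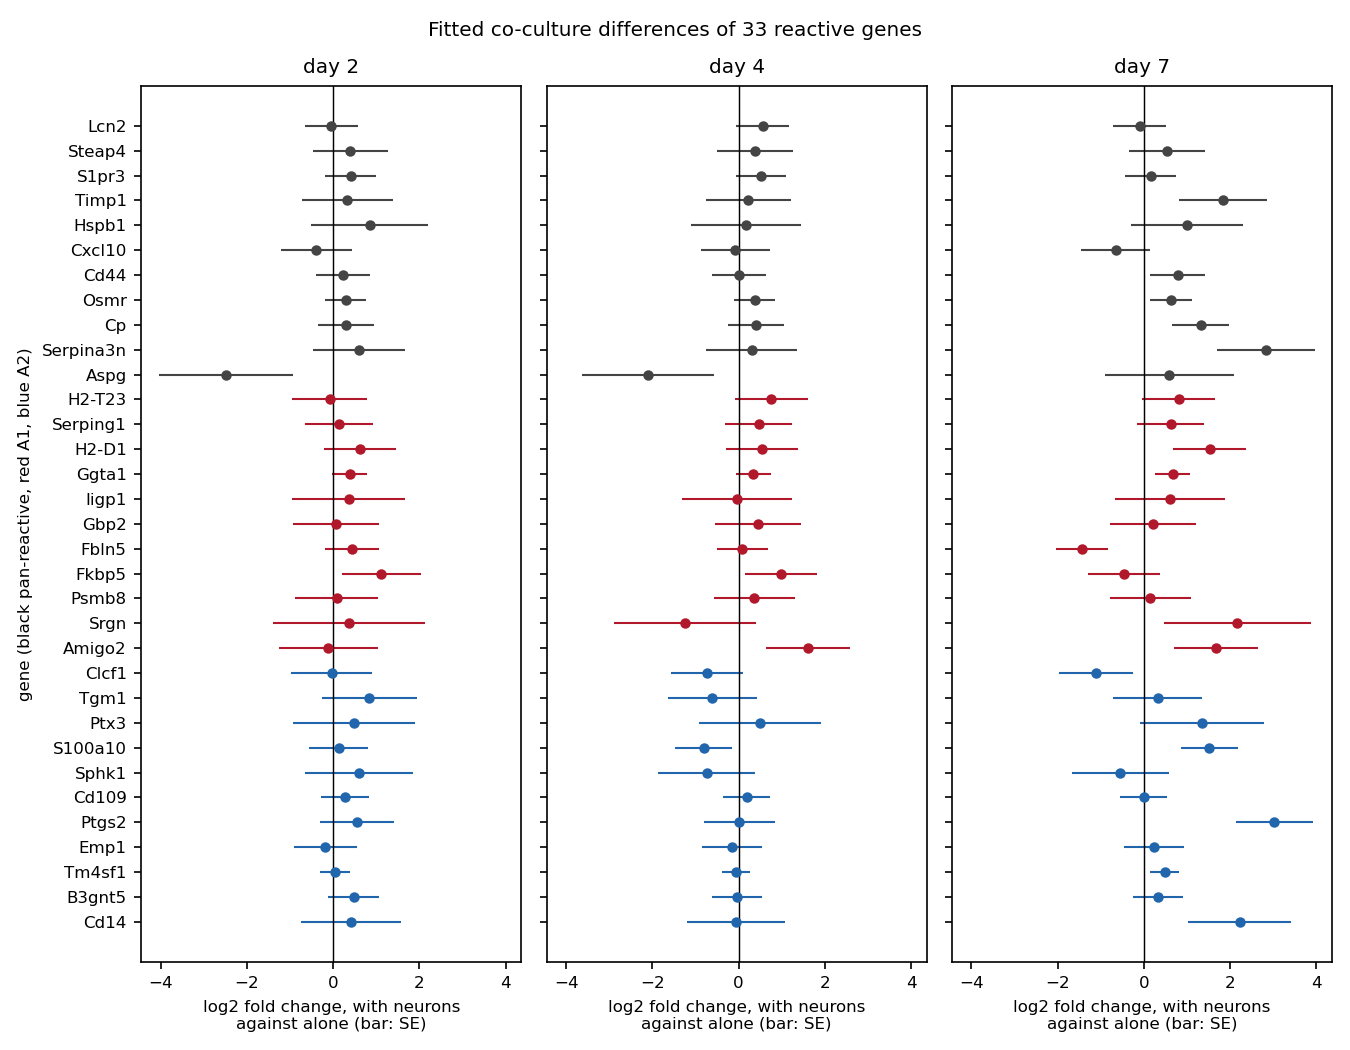
Fitted log2 fold changes of the 33 tested members, co-culture against astrocytes alone, at day 2, day 4 and day 7 (points; bars are 1 SE, from 18 libraries). Colours give the set, most points lie right of 0, and no member passed adjusted p under 0.05.

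Pair by pair, 3 members were higher in co-culture in 9 of 9 pairs: the pan-reactive gene Serpina3n and the A1 genes H2-D1 and Ggta1. Among all tested genes 0.441% were higher in 9 of 9 pairs. Steap4, Osmr, Cp and Cd14 were higher in 8 of 9, and 3.45% of all tested genes were higher in 8 or 9. No member was lower in 8 or 9 of 9 pairs, as 2.73% of all tested genes were. By day, 13 of 33 members were higher in every pair at day 2 (all tested genes 15.2%), 10 at day 4 (10.7%) and 11 at day 7 (14%), while 1, 3 and 2 were lower in every pair (8.48%, 14.8% and 15.8%). The day 2 pair of replicate 1 includes the library of 401 member reads, and 64.9% of all tested genes were higher in it. All 11 pan-reactive genes were higher in that pair, against 7 and 6 in the day 2 pairs of replicates 2 and 3.

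Serpina3n encodes a secreted serine protease inhibitor and is a common marker of reactive astrocytes. At day 2 astrocytes alone held 26.9 (4 reads), 268 and 87.4 CPM in replicates 1, 2 and 3, and co-cultures held 72.8, 448 and 101 CPM. At day 4 they held 22.1, 663 and 213 CPM alone and 120, 701 and 287 CPM in co-culture. Each co-culture value lies above its partner, but the lowest and highest replicates of a group lie further apart than any partners of that day do. At day 7 the values were 87.4, 43.7 and 137 CPM alone and 120, 1619 and 172 CPM in co-culture, and the groups overlapped. The fitted difference at day 7 was 2.83 (SE 1.13, edgeR adjusted p = 0.468). With the library at 1619 CPM left out it was 0.62, and it was 1.61 (SE 0.83) with 16 libraries and the block. Day 2 gave 0.61 (SE 1.07), day 4 gave 0.30 (SE 1.06) and the average over the days 1.25 (SE 0.62, adjusted p = 0.982), which was 0.50 with the library at 1619 CPM left out.

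Cp was highest in the same library as Serpina3n, replicate 2 of the co-culture at day 7. At day 4, where it was higher in 3 of 3 pairs, astrocytes alone held 1574, 4217 and 2277 CPM and co-cultures 3030, 4773 and 2944 CPM. At day 7 the values were 1663, 1475 and 764 CPM alone and 773, 7142 and 1824 CPM in co-culture, so the pair of replicate 1, which includes the second doubtful library, ran the other way from the other two. The fitted difference was 0.41 (SE 0.65) at day 4 and 0.68 (SE 0.38, edgeR adjusted p = 0.982) on average. Single libraries moved both: at day 4 it was 0.14 without the library at 1574 CPM, 0.15 without that at 4773 CPM and 0.84 without that at 4217 CPM, and the average was 0.20 without the library at 7142 CPM.

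The other pan-reactive genes gave smaller or less even differences. S1pr3, a receptor for sphingosine 1-phosphate, held 134, 522 and 452 CPM alone and 279, 566 and 655 CPM in co-culture at day 2, a difference of 0.41 (SE 0.59) that was 0.027 with the library at 134 CPM, the one of 401 member reads, left out. Steap4, a metalloreductase, held 71.0, 570 and 288 CPM alone and 253, 588 and 369 CPM in co-culture at day 4, a difference of 0.38 (SE 0.87) that was 0.0033 with the library at 588 CPM left out. In both genes the gap was widest in replicate 1 and the groups overlapped. Timp1, an inhibitor of matrix metalloproteinases, held 6.62, 2.995 and 2.29 CPM alone and 27.2, 12.9 and 2.82 CPM in co-culture at day 7, a difference of 1.84 (SE 1.02) that was 0.99 with the library at 27.2 CPM left out and 0.51 with 15 libraries (also without the day 7 astrocyte-only library of replicate 2, a choice made after seeing the data) and the block. The edgeR adjusted p was 0.589 for Timp1 at day 7 and 1 for S1pr3 at day 2 and for Steap4 at day 4. Lcn2, a secreted iron-trafficking protein and the best known pan-reactive gene, was fitted at −0.04, 0.56 and −0.10 at days 2, 4 and 7, and higher in 5 of 9 pairs. Cxcl10, a chemokine induced by interferon, was fitted lower at all days (−0.39, −0.08 and −0.66). At day 7 its group means were 29.7 CPM alone (SD 13.3) and 18.6 CPM in co-culture (SD 16.7). Its lowest level in replicate 1 was 0.672 CPM, and 13.1 CPM without both doubtful libraries. In the first doubtful library 3 reads correspond to 20.2 CPM, so this lowest level lies in the second, the day 7 co-culture. Aspg had the largest fitted values of the set at day 2 (−2.49, SE 1.56) and day 4 (−2.11, SE 1.53), from levels of at most 1.35 CPM.

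The A1 set holds genes of class I antigen presentation, interferon-induced GTPases and a group of others without a shared role. For H2-D1, H2-T23, Gbp2, Psmb8 and the pan-reactive gene Serpina3n, the 250 bases before the transcription start are shown as a description. Only the motif named for each gene is marked, and a part of these letters in the differences between libraries was not tested. They are from RefSeq (GRCm38.p6), 5′ to 3′ in the direction of the gene, and capitals mark matches on either strand to the letters of an interferon-stimulated response element (ISRE: GAAA, any 2 bases, GAAA) in H2-T23 and Gbp2, to a GAS element (TTCNNNGAA) bound by STAT proteins in Psmb8, and to an NF-kB site (GGGA, any 4 bases, CC) in H2-D1 and in the pan-reactive gene Serpina3n. In H2-D1 a pair of matches, 1 on each strand, overlap in a single run of capitals. The windows are chr17:35262844-35263093 (plus strand), chr17:36032702-36032951 (minus strand), chr3:142620413-142620662 (plus strand), chr17:34197945-34198194 (plus strand) and chr12:104406458-104406707 (plus strand).
H2-D1: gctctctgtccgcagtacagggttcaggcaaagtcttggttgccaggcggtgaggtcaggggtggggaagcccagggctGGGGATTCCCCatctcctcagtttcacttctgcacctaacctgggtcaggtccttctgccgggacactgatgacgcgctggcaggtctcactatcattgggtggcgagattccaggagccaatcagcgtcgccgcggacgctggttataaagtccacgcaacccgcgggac
H2-T23: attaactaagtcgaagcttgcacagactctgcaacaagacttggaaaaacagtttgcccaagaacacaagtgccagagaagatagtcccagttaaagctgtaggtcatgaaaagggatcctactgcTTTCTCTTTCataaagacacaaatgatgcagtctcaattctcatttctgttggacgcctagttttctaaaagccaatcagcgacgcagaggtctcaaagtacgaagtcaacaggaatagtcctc
Gbp2: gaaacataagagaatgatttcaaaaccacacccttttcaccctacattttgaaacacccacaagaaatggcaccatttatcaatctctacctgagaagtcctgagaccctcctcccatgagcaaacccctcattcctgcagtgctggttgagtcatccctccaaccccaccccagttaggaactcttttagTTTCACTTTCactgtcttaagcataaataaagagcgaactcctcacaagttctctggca
Psmb8: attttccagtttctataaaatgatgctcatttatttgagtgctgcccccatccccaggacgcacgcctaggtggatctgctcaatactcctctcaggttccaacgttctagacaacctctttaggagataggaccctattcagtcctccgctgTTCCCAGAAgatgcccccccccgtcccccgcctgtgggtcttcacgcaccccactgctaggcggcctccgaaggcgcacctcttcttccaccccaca
Serpina3n: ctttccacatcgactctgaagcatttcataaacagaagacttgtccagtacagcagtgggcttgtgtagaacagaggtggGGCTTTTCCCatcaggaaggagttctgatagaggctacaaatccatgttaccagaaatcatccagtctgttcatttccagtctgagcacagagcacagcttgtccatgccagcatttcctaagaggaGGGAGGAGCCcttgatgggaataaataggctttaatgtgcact

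Promoters (250 bases before to 50 after the start) were taken from the RefSeq table for 28 members, with 37 promoters in all. None was used for the A1 genes Serping1 and Iigp1. The ISRE letters were found in 4 of 9 A1 genes (Gbp2, H2-T23, Fbln5 and Srgn), 1 of 11 pan-reactive genes (Cxcl10) and 2 of 8 A2 genes (Tgm1 and Tm4sf1), against 3.44% of the 32851 promoters of the table. The NF-kB letters were found in 3 of 9 A1 genes, 6 of 11 pan-reactive genes and 2 of 8 A2 genes, against 20.7% of all promoters, and a looser form (GGG, any 5 bases, CC), which contains them, in 50.8% of all promoters. GAS letters were found in 1 of 9, 1 of 11 and 3 of 8 genes, against 8.3%. A gene with several promoters has more chances of a match, and a match is a description of letters only.

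H2-D1 was higher in co-culture in every pair. Astrocytes alone held 437, 1200 and 124 CPM at day 2, against 853, 1677 and 193 CPM in co-culture. At day 4 the values were 265, 847 and 119 CPM alone and 663, 888 and 244 CPM in co-culture. At day 7 they were 426, 151 and 140 CPM alone and 863, 857 and 341 CPM in co-culture, with groups that overlapped. Replicate 3 was below replicates 1 and 2 in each group. The fitted difference was 0.62 (SE 0.83) at day 2, 0.54 (SE 0.83) at day 4, 1.52 (SE 0.84) at day 7 and 0.90 (SE 0.48, edgeR adjusted p = 0.982) on average. With the replicate block the average was 0.93 and with 16 libraries and the block 0.85, neither past adjustment over all genes. Single libraries moved the day 4 value, which was 0.11 without the library at 119 CPM, 0.14 without that at 888 CPM and 1.60 without that at 847 CPM, and the day 7 value was 0.71 with 15 libraries and the block. Class I genes are near-identical in sequence, so reads may be shared between H2-D1 and its relatives in a way the counts do not show.

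Ggta1 encodes the enzyme that adds alpha-galactose to cell-surface sugars. It held 40.3, 114 and 138 CPM alone and 86.5, 146 and 173 CPM in co-culture at day 2, where the first value rests on 6 reads. At day 7 it held 113, 70.0 and 146 CPM alone and 171, 186 and 166 CPM in co-culture, and every co-culture value was above every value alone. The fitted average was 0.47 (SE 0.23, edgeR adjusted p = 0.982), and 0.24 with 15 libraries and the block.

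H2-T23, the non-classical class I molecule Qa-1, held 22.7, 45.1 and 6.37 CPM alone and 53.1, 58.2 and 14.6 CPM in co-culture at day 4, a difference of 0.76 (SE 0.85) that was 0.32 without the library at 6.37 CPM and 1.5 without that at 45.1 CPM. Amigo2, an adhesion molecule, held 2.79, 1.66 and 1.55 CPM alone and 14.5, 2.85 and 2.08 CPM in co-culture at day 7, a difference of 1.68 (SE 0.98) that was 0.29 without replicate 1 of the co-culture. Neither passed adjustment (edgeR adjusted p = 1 and 0.616). Fbln5, an elastic fibre protein, was fitted lower. At day 7 astrocytes alone held 98.2, 198 and 90.03 CPM and co-cultures 33.3, 28.1 and 80.7 CPM, so the groups did not overlap, and the difference was −1.44 (SE 0.61, edgeR adjusted p = 0.484). Without the library at 198 CPM it was −0.99, with 15 libraries −0.85, with 15 libraries and the block −0.14, and without replicate 2 altogether −0.79. Fkbp5, a co-chaperone induced by glucocorticoids, was wholly above at day 2 from levels of at most 3.85 CPM. Its value alone in replicate 1 was 0 reads, in the library where 3 reads correspond to 20.2 CPM, so that library could not measure it. At day 2, 1 member of 33 was so placed against 3.26% of all tested genes (none was wholly below, against 2.27%). Iigp1, Gbp2 and Psmb8, all induced by interferon, were fitted between −0.03 and 0.61 at the 3 days. Srgn, with 268 reads, was fitted at 0.36, −1.24 and 2.17 with SE of 1.64 to 1.76.

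**Figure D2:**
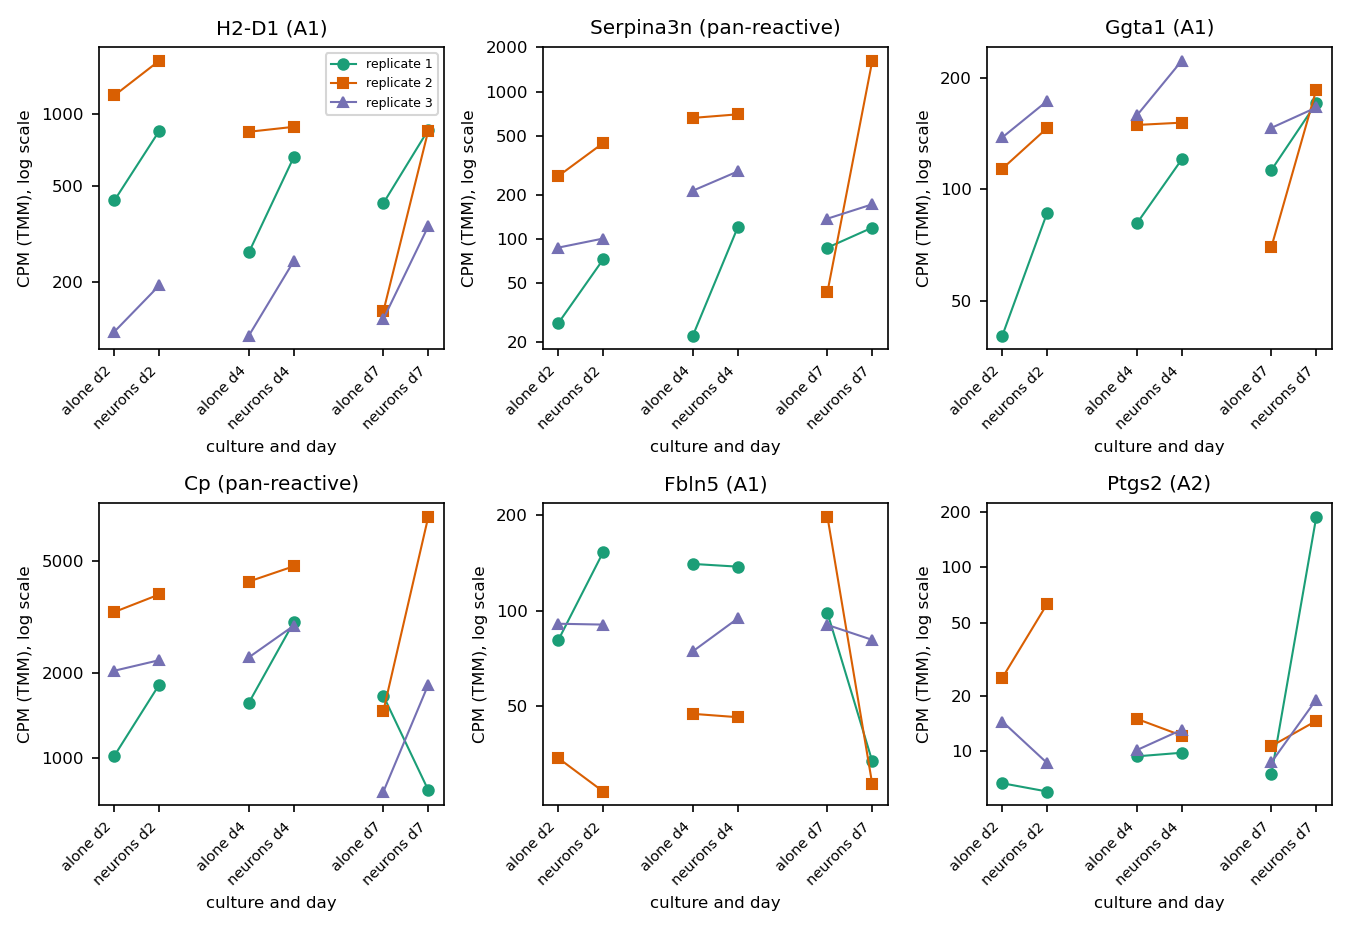
CPM of 6 members in all 18 libraries (log axis), astrocytes alone (left of each couple) and co-culture (right) by day, with lines joining the 9 pairs and colours for the replicate number. H2-D1, Serpina3n and Ggta1 were higher in co-culture in 9 of 9 pairs, Cp in 8, Ptgs2 in 6 and Fbln5 in 2.

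Of the A2 genes, Ptgs2 encodes cyclooxygenase 2, the inducible enzyme of prostaglandin synthesis. It held 7.55, 10.7 and 8.74 CPM alone and 188, 14.7 and 19.1 CPM in co-culture at day 7, so the groups did not overlap, and 1 library stood far above the rest. The difference was 3.03 (SE 0.89, edgeR adjusted p = 0.468), and it was 0.89 without that library, replicate 1 of the co-culture. S100a10, the partner of annexin A2, held 42.2, 41.8 and 83.0 CPM alone and 329, 44.5 and 106 CPM in co-culture at day 7, a difference of 1.52 (SE 0.67, edgeR adjusted p = 0.501) that was 0.41 without the same library. At day 4 S100a10 ran the other way, with 121, 55.9 and 33.1 CPM alone and 59.3, 42.3 and 18.2 CPM in co-culture (−0.81, SE 0.66), a difference that was −0.16 without the library at 121 CPM and −0.25 with limma-voom.

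Cd14, a co-receptor for lipopolysaccharide that microglia and macrophages also make, held 3.78, 3.74 and 2.66 CPM alone and 21.7, 19.5 and 6.23 CPM in co-culture at day 7. Its groups did not overlap, and the difference was 2.22 (SE 1.19, edgeR adjusted p = 0.574), or 1.44 with 16 and 0.94 with 15 libraries and the block. At day 2 it had 0 reads in replicate 1 of astrocytes alone, 23.9 and 4.08 CPM in replicates 2 and 3, and 8.14, 32.8 and 5.35 CPM in co-culture (0.41, SE 1.17). On average it was 0.86 (SE 0.67), with 0.44 to 1.40 when single libraries were left out and 0.29 with 15 libraries and the block. At day 7, 3 members (Ggta1, Ptgs2 and Cd14) lay wholly above in co-culture and 1 (Fbln5) wholly below, against 4.29% and 5.58% of all tested genes. Tgm1, a transglutaminase, lay wholly below at day 4, as did 3.92% of all tested genes, and no member lay wholly above, as 2.05% did.

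Microglia and macrophage markers were higher in the day 7 co-culture in replicates 1 and 2 and lower in replicate 3. Their summed level was 6.33, 228 and 12.04 CPM in astrocytes alone at day 7 (replicates 1, 2 and 3) and 256, 485 and 9.72 CPM in co-culture. All 16 tested markers were fitted higher in co-culture at day 7, with a median of 2.24, and 0 passed adjusted p under 0.05, beside 0% of all tested genes. In replicate 1 of that co-culture, the library in which Ptgs2 and S100a10 were highest, 9 of the 17 markers had a read. In replicate 3 at day 7, 13 of the 17 markers had a read alone and 7 in co-culture. Cd14, Ptgs2 and Ggta1 were higher in co-culture in that pair. The part of these cells in the members' values was not tested. In bulk RNA, fewer cells of a type and less RNA per cell cannot be told apart. Neuron markers summed to 73.6 to 141 CPM in the day 7 co-cultures and 84.8 to 155 CPM alone.

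Ptx3, the A2 gene with the most reads, held 26.9 (4 reads), 379 and 33.4 CPM alone at day 2. In co-culture it held 50.02, 558 and 45.01 CPM, a difference of 0.48 (SE 1.42). At day 7 it held 152, 7.86 and 21.3 CPM alone and 31.6, 405 and 20.8 CPM in co-culture, where 1 pair of 3 was higher. Sphk1, the kinase that makes sphingosine 1-phosphate, held 9.01, 2.43 and 0.871 CPM alone and 5.43, 1.84 and 0.0596 CPM in co-culture at day 4 (−0.74, SE 1.12). The groups overlapped in each of these comparisons. Clcf1, a cytokine of the CNTF receptor, was fitted lower at all days (−0.03, −0.73 and −1.10). The membrane proteins Emp1, Cd109 and Tm4sf1 and the glycosyltransferase B3gnt5 were fitted between −0.18 and 0.48 at the 3 days.

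Compared set by set, the median fitted difference at day 2 was 0.30 for the pan-reactive, 0.36 for the A1 and 0.41 for the A2 genes, beside 0.040 for all tested genes. At day 4 it was 0.30, 0.45 and −0.06, beside −0.014, and at day 7 it was 0.63, 0.62 and 0.33, beside 0.0041. On average over the days it was 0.43, 0.43 and 0.18, beside 0.025. With 16 libraries and the replicate block, the day 2 medians were −0.09, 0.0041 and 0.07, those of day 4 were 0.38, 0.46 and −0.30, and those of day 7 were 0.76, 0.45 and 0.31. The day 2 medians were thus at or near 0 in that fit. With single libraries left out, the pan-reactive median of day 2 was −0.042 without the library of 401 member reads and −0.20 without the co-culture of replicate 2, and without the latter the A1 median of day 2 was −0.35. The pan-reactive median of day 4 was −3.05e-05 without the co-culture of replicate 2 and 0.065 without astrocytes alone of replicate 1, and the A1 average was 0.041 without the day 7 co-culture of replicate 2. The A1 median of day 7 was −0.05 with 15 libraries and the block, and the A2 median of day 7 was −0.021 with the block on 18 libraries. The order of the sets at day 4, with A2 lowest, was the same with 18 libraries as with 16 and the block.

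Within pairs the sets did not move alike. At day 7 the median log2 difference of the pair was −1.11 for pan-reactive, −1.56 for A1 and 0.74 for A2 genes in replicate 1, where all tested genes had −0.64. It was 1.75, 2.29 and 0.09 in replicate 2 and 0.36, 0.48 and 0.35 in replicate 3, where all tested genes had 0.024 and 0.070. The pan-reactive and A1 sets thus ran in opposite directions in replicates 1 and 2. At day 4 the medians were 0.94, 0.86 and −0.04 in replicate 1, 0.17, 0.17 and −0.28 in replicate 2, and −0.31, 0.49 and −0.28 in replicate 3. At day 2 they were 1.24, 0.97 and 1.14 in replicate 1, where all tested genes had 0.63. They were 0.12, 0.11 and 0.07 in replicate 2 and 0.06, 0.06 and −0.52 in replicate 3, where all tested genes had −0.045 and −0.014. With the day 7 co-culture library of replicate 2 left out, the fitted day 7 medians of the pan-reactive and A1 sets were −0.06 and −0.42. That fit kept the doubtful day 7 co-culture of replicate 1. Without replicate 1 altogether the pan-reactive median was 1.36, so the sign depends on which libraries are kept.

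**Figure D3:**
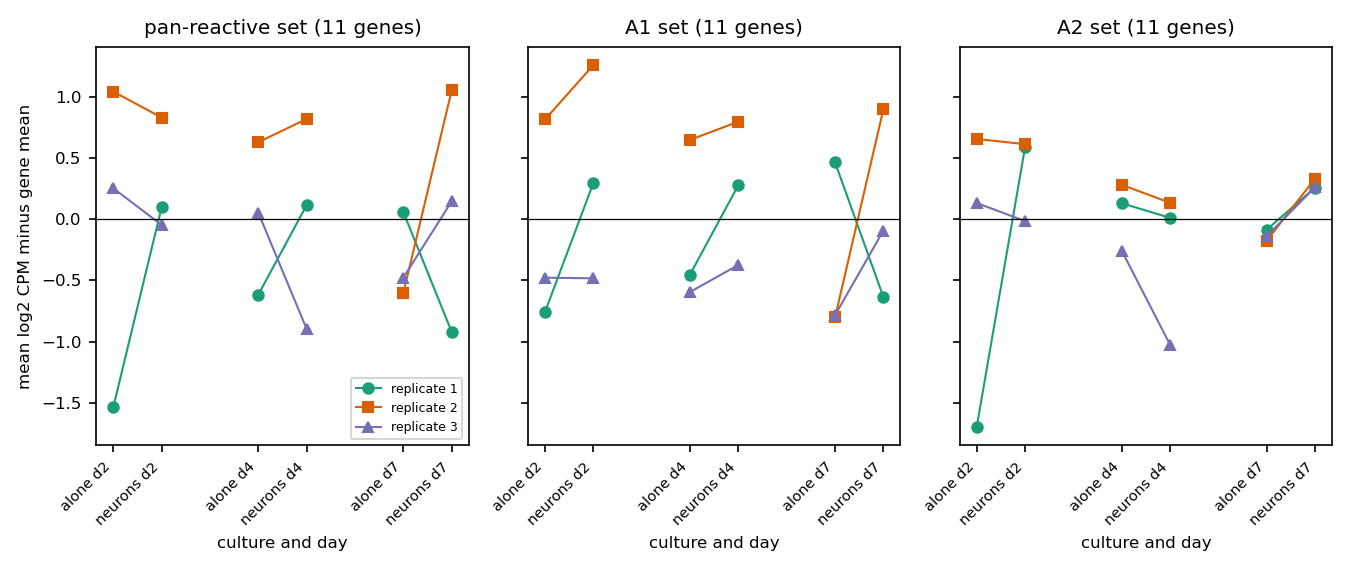
Level of each set in the 18 libraries, as the mean over its 11 tested genes of log2 CPM minus the gene's own mean, with lines joining pairs and colours for the replicate number. In replicate 3 the A1 set lay between −0.78 and −0.09, and in replicate 2 between 0.65 and 1.26 except for −0.80 in astrocytes alone at day 7.

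Over time in culture no member passed either. In edgeR's test 0 of 33 members and 0% of all tested genes had adjusted p under 0.05 in any of the 6 comparisons between days. In astrocytes alone 19 of 33 members were fitted higher at day 4 than at day 2 (all tested genes 56.2%), 9 at day 7 than at day 4 (44.4%) and 9 at day 7 than at day 2 (51%). The smallest p between day 2 and day 4 belonged to Tm4sf1 (−0.66, SE 0.34), H2-T23 (−1.56, SE 0.88), Lcn2 (−0.97, SE 0.62), Psmb8 (−1.25, SE 0.97) and Gbp2 (−1.18, SE 1.01). All of these were fitted lower at day 4. Between day 4 and day 7 alone it belonged to Clcf1 (−1.46, SE 0.86), Serpina3n (−1.74, SE 1.09), Cp (−1.05, SE 0.66), Srgn (−1.98, SE 1.70) and Aspg (−1.5, SE 1.5). Between day 2 and day 7 alone it belonged to Lcn2 (−1.23, SE 0.63), Aspg (−3.12, SE 1.62), H2-T23 (−1.52, SE 0.88), H2-D1 (−1.30, SE 0.84) and Fbln5 (0.95, SE 0.63). Fbln5 was the only one of these fitted higher at the later day.

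In co-culture 12 of 33 members were fitted higher at day 4 than at day 2 (all tested genes 49.8%) and 22 were fitted higher at day 7 than at day 4 (50%), with 16 from day 2 to day 7 (51.2%). The smallest p from day 2 to day 4 belonged to Tm4sf1 (−0.76, SE 0.34), Ptgs2 (−1.15, SE 0.84), Cd14 (−1.56, SE 1.16), Tgm1 (−1.37, SE 1.04) and Timp1 (−1.24, SE 1.00). From day 4 to day 7 it belonged to Ptgs2 (2.65, SE 0.88), S100a10 (2.00, SE 0.68), Tm4sf1 (0.83, SE 0.34), Clcf1 (−1.84, SE 0.87) and Fkbp5 (−1.58, SE 0.85), all with edgeR adjusted p of 0.431 to 0.542. With 16 libraries and the block, Ptgs2 gave 0.32 and S100a10 1.38. From day 2 to day 7 it belonged to Clcf1 (−1.88, SE 0.87), Lcn2 (−1.28, SE 0.63), S100a10 (1.27, SE 0.66), Ptgs2 (1.5, SE 0.84) and Fbln5 (−0.92, SE 0.60). Of the co-culture time comparisons, unadjusted edgeR p was under 0.05 for 1, 4 and 1 members (2.17%, 10.2% and 13.2% of all tested genes), and alone for 0, 0 and 0 (0.732%, 0.169% and 1.11%).

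Whether the difference made by neurons changed from day to day was tested directly, and 0 of 33 members and 0% of all tested genes passed in edgeR. The smallest p between day 7 and day 4 belonged to Ptgs2 (3.01, SE 1.19), S100a10 (2.32, SE 0.93), Fbln5 (−1.53, SE 0.85), Serpina3n (2.53, SE 1.52) and Srgn (3.40, SE 2.37). Between day 7 and day 2 it belonged to Fbln5 (−1.87, SE 0.87), Ptgs2 (2.48, SE 1.21), S100a10 (1.39, SE 0.94), Serpina3n (2.22, SE 1.52) and Aspg (3.08, SE 2.17). Between day 4 and day 2 it belonged to Amigo2 (1.73, SE 1.48), S100a10 (−0.93, SE 0.94), Tgm1 (−1.44, SE 1.51), Sphk1 (−1.34, SE 1.69) and H2-T23 (0.84, SE 1.21). Unadjusted p was under 0.05 for 2, 1 and 0 members (3.07%, 5.47% and 1.06% of all tested genes).

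Between the 3 replicate numbers, several class I, interferon-induced and acute-phase members differed by over 1 on the log2 scale. In edgeR's test of the replicate number, over all 18 libraries with the 6 groups in the model, 10 of 33 members passed adjusted p under 0.05, which is 30.3%, against 5.76% of all tested genes. They were S1pr3, Cp and Serpina3n of the pan-reactive set, H2-T23, H2-D1, Iigp1 and Psmb8 of the A1 set, and Ptx3, Cd109 and Emp1 of the A2 set. Before adjustment 23 of 33 had p under 0.05, against 18.3% of all tested genes. With 16 libraries 12 members passed (8.93% of all tested genes), with DESeq2 15 (11.8%) and with limma-voom 19 (18.6%). Because all libraries of a number share a date, the number stands for the date and everything done on it, and the p-values compare these dates with the spread within them.

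**Figure D4:**
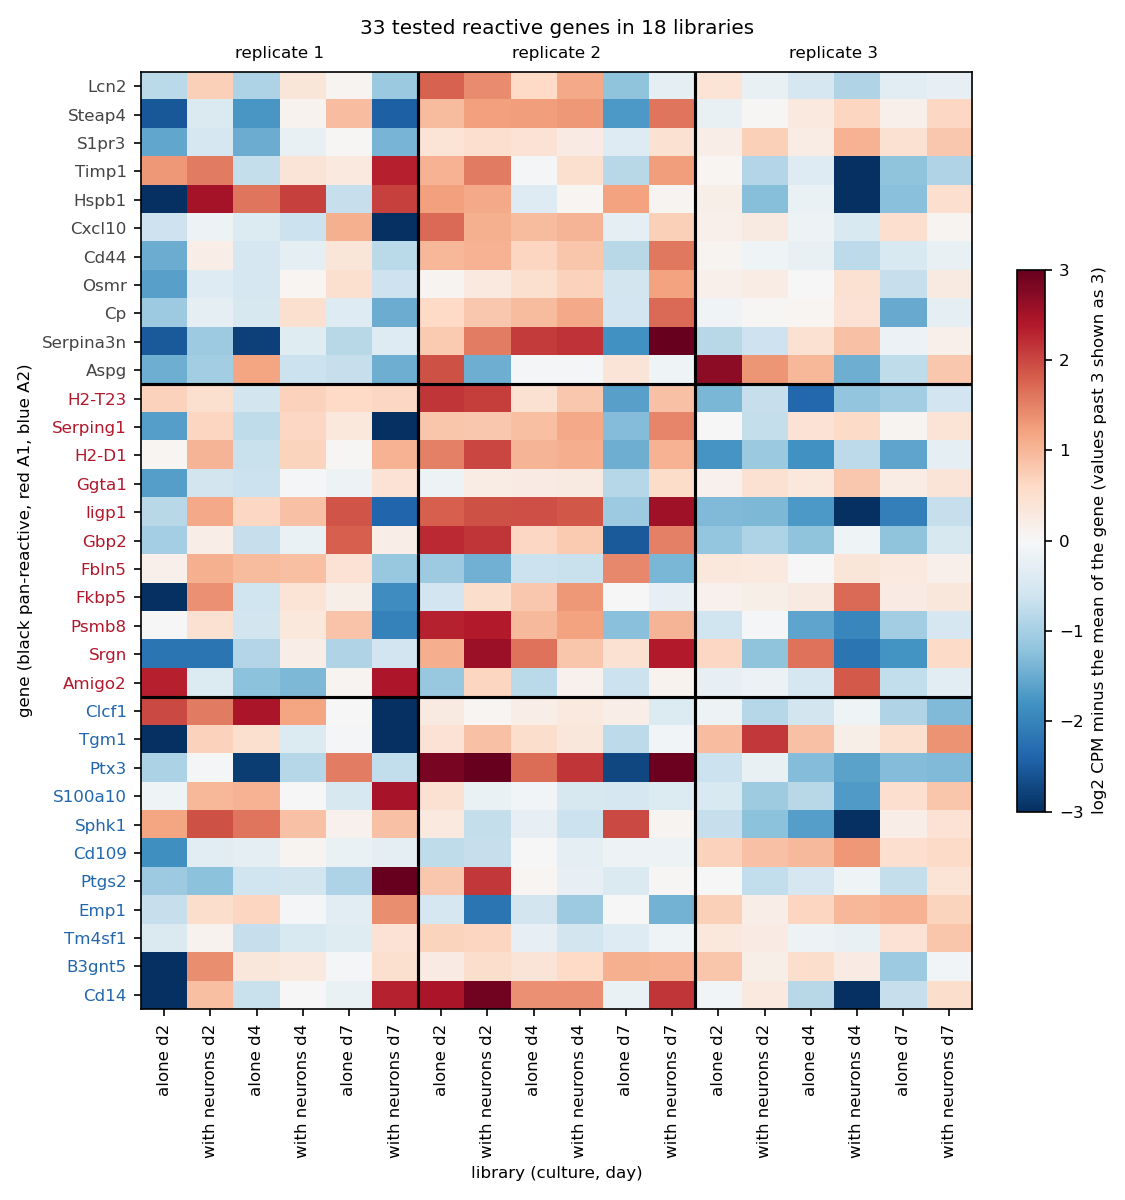
Log2 CPM of the 33 tested members minus each gene's mean, in 18 libraries ordered by replicate number, day and culture (values beyond 3 are drawn as 3). In replicate 2 most A1 genes are above their mean except in astrocytes alone at day 7, and in replicate 3 H2-T23, H2-D1 and Iigp1 are below it in every library.

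In the A1 set the genes of antigen presentation and the interferon response were lowest in replicate 3. H2-D1 held 265, 550 and 863 CPM (lowest, median and highest of 6 libraries) in replicate 1, 151, 872 and 1677 CPM in replicate 2 and 119, 166 and 341 CPM in replicate 3. Replicate 3 differed from replicate 1 by −1.57 (SE 0.34) and from replicate 2 by −2.22 (SE 0.36, edgeR adjusted p = 0.00293 over the 3 numbers). H2-T23 held 22.7, 50.4 and 53.8 CPM in replicate 1, 10.6, 59.5 and 146 CPM in replicate 2 and 6.37, 15.2 and 22.2 CPM in replicate 3, so that replicate 3 lay wholly below replicate 1 (−1.64, SE 0.39, edgeR adjusted p = 0.00679). Iigp1, a GTPase that attacks the vacuoles of intracellular parasites, held 4.54, 40.4 and 89.0 CPM, then 11.2, 88.8 and 141 CPM, then 2.56, 8.27 and 14.9 CPM, a difference of −2.51 (SE 0.65) between replicates 3 and 1 (edgeR adjusted p = 0.00697). Psmb8, a subunit of the immunoproteasome that cuts peptides for class I molecules, held 4.87, 22.6 and 36.5 CPM, then 8.34, 43.9 and 105 CPM, then 5.13, 11.5 and 19.6 CPM (−1.01, SE 0.49, edgeR adjusted p = 0.019). Gbp2, an interferon-induced GTPase, held 67.2, 137 and 471 CPM, then 23.6, 311 and 641 CPM, then 58.4, 66.0 and 124 CPM, in the same order but not past the test (edgeR adjusted p = 0.078).

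Other members were highest in replicate 2. Serpina3n held 22.1, 80.1 and 120 CPM in replicate 1, 43.7, 555 and 1619 CPM in replicate 2 and 87.4, 155 and 287 CPM in replicate 3, with replicate 2 above replicate 1 by 2.83 (SE 0.53, edgeR adjusted p = 0.0061). Ptx3 held 7.15, 30.4 and 152 CPM, then 7.86, 306 and 558 CPM, then 17.3, 21.2 and 45.01 CPM, with replicate 2 above replicate 1 by 2.77 (SE 0.75, edgeR adjusted p = 0.00573). Cp held 773, 1619 and 3030 CPM, then 1475, 4007 and 7142 CPM, then 764, 2133 and 2944 CPM (replicate 2 above 1 by 1.25, SE 0.35, edgeR adjusted p = 0.0497). In these genes the lowest library of replicate 2 was astrocytes alone at day 7.

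The remaining called members followed other orders. Cd109, a membrane-anchored protein that binds TGF-beta, held 26.9, 79.1 and 102 CPM in replicate 1, 57.1, 82.5 and 95.9 CPM in replicate 2 and 138, 167 and 236 CPM in replicate 3, which lay wholly above the other two (1.20 above replicate 1, SE 0.22, edgeR adjusted p = 0.00164). S1pr3 held 134, 214 and 406 CPM, then 302, 527 and 566 CPM, then 452, 599 and 815 CPM, so replicate 1 lay wholly below replicate 3 (1.35, SE 0.28, edgeR adjusted p = 0.0144). Emp1 was lowest in replicate 2, with 20.2, 38.9 and 85.4 CPM, then 6.98, 18.7 and 32.4 CPM, then 37.1, 52.2 and 67.3 CPM (replicate 2 below 1 by −1.36, SE 0.37, edgeR adjusted p = 0.0211). The 10 members therefore do not share one order of the replicate numbers.

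**Figure D5:**
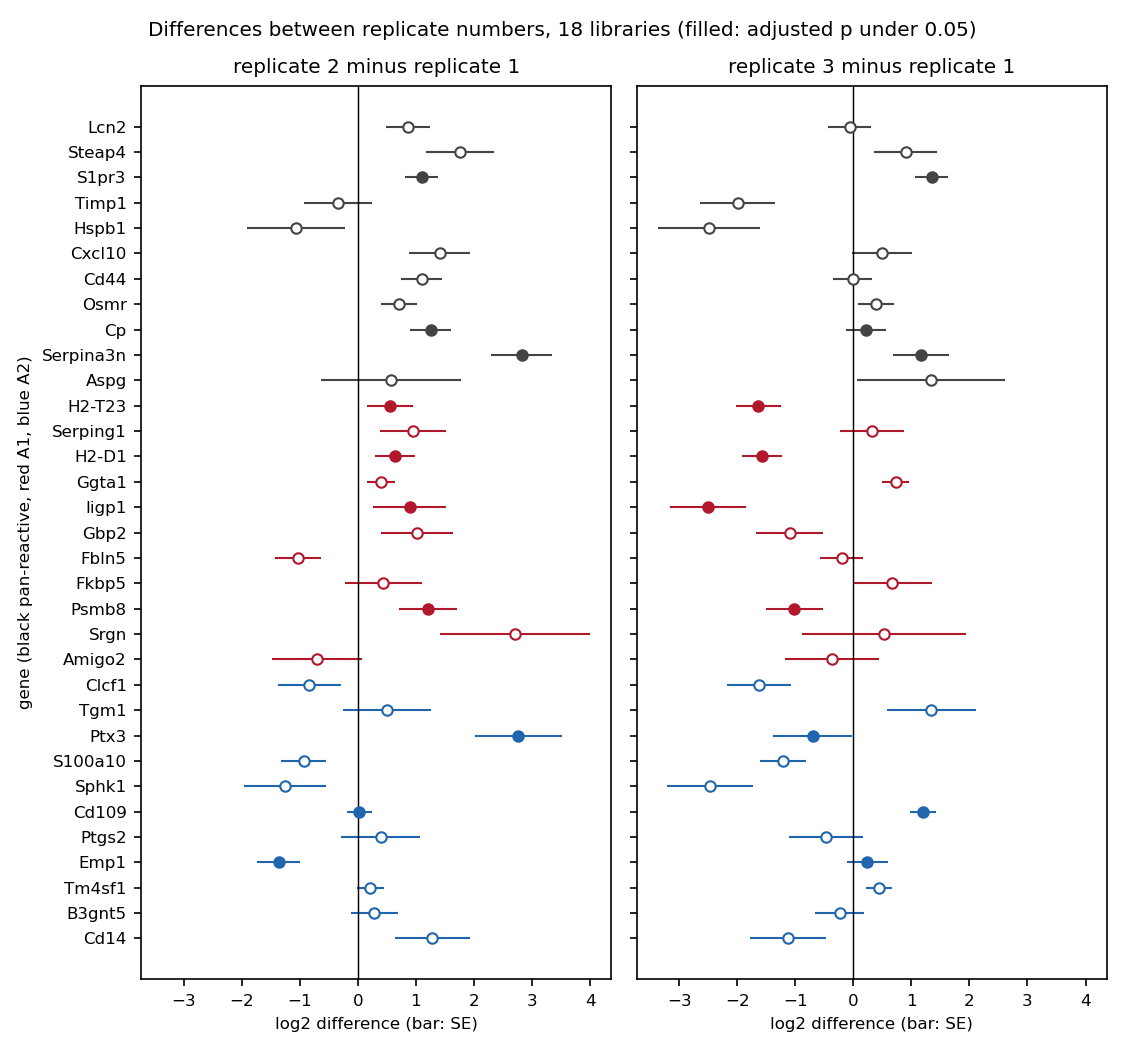
Fitted log2 differences of replicate 2 and of replicate 3 from replicate 1 for the 33 tested members (points; bars are 1 SE; filled where the edgeR adjusted p over the 3 numbers was under 0.05, in 10 members). H2-T23, H2-D1, Iigp1 and Psmb8 lie left of 0 in the replicate 3 panel, and Serpina3n and Ptx3 are the called members right of 2 in the replicate 2 panel.

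Of the 10 calls, 6 (Serpina3n, H2-T23, H2-D1, Iigp1, Ptx3 and Cd109) held with any 1 of the 18 libraries left out. That of Cp was lost without any of 15 libraries (edgeR adjusted p = 0.0586 to 0.139) and held without either day 7 library of replicate 1 or the day 7 astrocyte-only library of replicate 2. That of Psmb8 was lost without any of 8 (0.0527 to 0.0749): replicates 2 and 3 of both day 2 groups, of astrocytes alone at day 4, replicate 3 of the day 4 co-culture and replicate 2 of the day 7 co-culture. That of Emp1 was lost without any of 4 (0.0567 to 0.0656): replicate 2 of the day 2 or day 4 co-culture, replicate 3 of the day 4 co-culture, or the day 2 astrocyte-only library of replicate 3. That of S1pr3 was lost with the day 4 astrocyte-only library of replicate 1 left out (0.0516). With the day 7 astrocyte-only library of replicate 2 left out, 16 members passed, beside 6.21% of all tested genes. That library held 43.7 CPM of Serpina3n, 7.86 of Ptx3, 151 of H2-D1 and 23.6 of Gbp2, low for replicate 2, but 198 of Fbln5, where the 5 others of that number held 26.7 to 47.1 CPM. Without it and both doubtful libraries (15 libraries, chosen after seeing the data) 19 members passed, which is 57.6%, against 11.5% of all tested genes, and Gbp2 (adjusted p = 0.000615) and Fbln5 (6.38e-05) were among them.

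Markers of some cell types also differed between the replicate numbers. Microglia and macrophage markers summed to 6.33, 45.9 and 256 CPM (lowest, median and highest) in replicate 1, 119, 205 and 485 CPM in replicate 2 and 5.32, 10.6 and 17.8 CPM in replicate 3. In the same test 12 of the 16 tested markers passed, against 5.76% of all tested genes. Astrocyte markers summed to 713, 1722 and 2255 CPM, then 2417, 2842 and 2964 CPM, then 4749, 5485 and 6346 CPM, and 11 of 15 passed. In replicate 3, where H2-D1, H2-T23 and Iigp1 were lowest, 4 to 13 of the 17 microglia markers had a read in a library. Astrocytes alone at day 7 of replicate 2 had a microglia marker sum of 228 CPM, where the range of that number was 119 to 485 CPM. Serpina3n and H2-D1 in that library were the lowest of that number. Fibroblast markers summed to 60.2, 124 and 218 CPM, then 161, 238 and 330 CPM, then 127, 247 and 352 CPM, and 3 of 7 passed (Col1a1, Col3a1 and Dcn). Neuron markers summed to 73.6, 226 and 307 CPM, then 129, 138 and 191 CPM, then 41.4, 96.5 and 132 CPM, and 1 of 8 tested passed (Tubb3). Endothelial and mural markers summed to 42.0, 478 and 1222 CPM, then 146, 428 and 503 CPM, then 165, 197 and 355 CPM, and 0 of 9 tested passed. Of the oligodendrocyte lineage and ependymal markers 0 of 8 and 0 of 5 tested passed. The neuron count and these counts of 0 are near what a share of 5.76% would give in lists this short. The part of any of these cell types in the members' differences was not tested.

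The pathways upstream and beside the members were followed in 5 lists. None of the 5 lists had a gene past adjusted p under 0.05 in a co-culture comparison in edgeR, where 0% of all tested genes passed. By replicate number 8 of 20 genes of TNF, IL-1 and NF-kB signalling passed (Tnf, Il1a, Il1b, Tnfrsf1b, Nfkbia, Tnfaip3, Icam1 and Vcam1), 9 of 23 of interferon and antigen presentation (Irf7, B2m, Psmb10, H2-K1, Gbp3, Ifit1, Ifit3, Isg15 and Usp18), 6 of 14 of complement (Cfb, C1qa, C1qb, C1qc, C3ar1 and Cd55), 1 of 17 of gp130 and STAT3 signalling (Lif) and 1 of 4 reactive filament genes (Gfap). C1qa, C1qb and C1qc are also counted among the microglia and macrophage markers above, and Gfap among the astrocyte markers. Among all tested genes 5.76% passed, and the share of the gp130 and STAT3 list was near it. B2m, the light chain of all class I molecules, differed by −1.49 and H2-K1 by −0.85 between replicates 3 and 1. C1qa, Il1b and Tnf, which microglia and macrophages are known to make, were at 0 in at least 1 library and at most 25.3, 64.1 and 9.31 CPM.

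Gfap, the intermediate filament that defines reactive astrocytes in tissue, ran from 60.5 to 232 CPM in replicate 1, from 387 to 554 CPM in replicate 2 and from 1245 to 1963 CPM in replicate 3. These ranges do not overlap (edgeR adjusted p = 9.27e-06), and the order is not that of H2-D1, Serpina3n or Ptx3. Its co-culture difference was 0.21 on average (SE 0.67). Vim, the other main filament of astrocytes, ran from 969 to 4865 CPM, with a co-culture difference of 0.14 (SE 0.27) and an edgeR adjusted p of 0.174 over the replicate numbers. C3, the complement protein often used as an A1 marker, ran from 397 to 10089 CPM, with a co-culture difference of 0.56 (SE 0.57) and an edgeR adjusted p of 0.152. In replicate 2 at day 7 it was 556 CPM in astrocytes alone and 10089 CPM in co-culture, a library of astrocytes alone in which Serpina3n and Cp were also low for their replicate number.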

How the data were processed

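Gene counts of 18 libraries were analysed as deposited by the authors: whole-number read counts per Entrez gene, made with Subread and featureCounts on mm9, per the submitters' processing notes. The sources used here do not give tool versions, the annotation or the strand setting, so antisense or overlapping genes and near-identical copies (class I genes, Serpina3n, Gbp2 and Iigp1) may share reads. Columns were matched to samples by their labels, and 17 columns of values that match no sample here were not used. Symbols were found for 24191 of the 26301 gene IDs. The members and lists were chosen with earlier results of these data known.

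Counts were fitted in R 4.3.3 with edgeR 4.0.16 (quasi-likelihood test, 6 group means, TMM scaling, low-count filter by group), with p-values adjusted by Benjamini-Hochberg over all 16539 genes tested and called at adjusted p under 0.05. The replicate number was tested as 2 added coefficients. CPM are counts scaled to TMM-corrected library size. The median biological coefficient of variation was 0.569. Libraries of the same number deviated together (r = 0.108 to 0.469 in 9 pairings of equal number, −0.346 to −0.0102 in 18 others), and the labels give each number a date of its own. No libraries were duplicates (smallest chi-square per degree of freedom 116). Of 30 genes listed at 0 in a block of 8 libraries, 0 were members.

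Alternatives were median-ratio and upper-quartile scaling, DESeq2 1.42.0, limma 3.58.1 (voom with quality weights), other filters, a replicate block, only the groups compared, an adjusted p of 0.1, 16 libraries, and each replicate or library left out. The set of 15 libraries was added after seeing the data. The fits were tested on simulated data. Described in full were members called in any test, those with unadjusted p under 0.05 in a co-culture comparison, in each set the 2 with the largest fitted difference in one direction in every pair (8 or 9 of 9 for the average; mean log2 CPM at least 1), those with the most and fewest reads, and the 5 with the smallest p over time. Promoter sequences are from RefSeq (GRCm38.p6). No promoter was used for Serping1, Iigp1, Clcf1, S100a10, Cd109 and Cd14. Member promoters on a chromosome that was left out were not counted, while the share over all promoters included that chromosome.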

Additional observations from a re-analysis of the deposited data

Results flagged for a closer look

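For 2 members every pair differed one way on one day and the opposite way on another. Tgm1 was higher in co-culture in 3 of 3 pairs at day 2 and lower in 3 of 3 at day 4, and the difference between the days was −1.44 (edgeR adjusted p = 1.00). Replicate 1 of astrocytes alone at day 2 held 0 reads of Tgm1. There 3 reads correspond to 20.2 CPM, above the highest Tgm1 level of 5.31 CPM, so depth alone could make that pair higher. S100a10 was lower in co-culture in 3 of 3 pairs at day 4 and higher in 3 of 3 at day 7, and the difference between the days was 2.32 (edgeR adjusted p = 1.00). Neither passed the test of the difference itself, and the S100a10 value was 1.31 with 16 libraries and the replicate block.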

How the results depend on the processing

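No member was called in a co-culture, time or interaction comparison under any of the alternatives run. The number of members called by replicate number was 19 with limma-voom (18.6% of all tested genes), 19 with 15 libraries (11.5%), 15 with DESeq2 (11.8%) and 0 to 16 with a replicate or library left out: 4 without replicate 2 (1.21%), 0 without replicate 3 (0.932%) and 16 without astrocytes alone at day 7 of replicate 2 (6.21%). It was 10 with all 18 libraries in edgeR (5.76%). With 16 libraries S1pr3 was not called (edgeR adjusted p = 0.0508), nor was Cp with upper-quartile scaling (0.0661). With the replicate block the A2 median was −0.26 at day 4 and −0.021 at day 7, and at day 4 it was −0.30 with 16 and −0.31 with 15 libraries and the block. Leaving out a replicate or library gave −0.57 to −0.030 for the A2 median at day 4, 0.16 to 0.76 at day 7, −0.35 to 0.85 for the A1 median at day 2 and 0.14 to 1.12 at day 4. Under upper-quartile scaling the all-gene median moved by −0.109 at day 2, −0.0591 at day 4 and −0.151 at day 7.

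Some named values turned direction, and the cause was not tested. Sphk1 at day 4 was 0.14 with limma-voom and −2.10 to 0.57 in the leave-outs. Amigo2 at day 7 was −0.022 with 16 and −0.33 with 15 libraries and the block. In the leave-outs the day 2 differences were −0.65 to 1.63 for Serpina3n, −0.18 to 1.72 for H2-D1, −1.71 to 2.74 for Ptx3 and −0.77 to 2.12 for Cd14, and that of Steap4 at day 4 was −0.089 to 1.09. The replicate block changed no co-culture call of a member. Low counts limit Aspg, Srgn and Slc10a6, which held at most 36, 74 and 47 reads in a library. Depth limits all members in the day 2 library of astrocytes alone with 401 member reads.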
